A study of Homo sapiens with 16 samples.

Results

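The genes described here are 36 members of the set of transcripts that human cells raise in G2 and mitosis. They were chosen by symbol from a table of 58219 genes, and all 36 were found and passed the filter on low counts. They comprise 9 genes of mitotic entry, 7 genes of mitotic kinases, their partner survivin and the spindle checkpoint, 11 genes of the spindle and of cell division, 5 genes of centromere and kinetochore, 2 genes of chromosome structure and 2 genes of mitotic exit. The lowest count of a member in a library was 173, for CDC25C.

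In dividing cells these genes are transcribed late in the cell cycle by a shared machinery. The DREAM complex holds them off in resting and G1 cells, and MYBL2 with the MuvB core and then FOXM1 turn them on in G2, through CHR and CCAAT elements close to the start site. Their products switch on cyclin B and CDK1, build the spindle and hold the chromosomes, and some are later destroyed through the anaphase promoting complex. As transcription comes late in the cycle, the summed level of these transcripts in a culture follows the share of cells in G2 and mitosis. It also follows the amount of each transcript per cell. In RNA from whole cultures, fewer cells in those phases and less RNA per cell cannot be told apart.

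The 16 libraries came from PANC-1, an epithelial cancer cell line from human pancreas labelled as wild type, with 2 libraries in each of 8 groups. The groups were FLASH siRNA, NPAT siRNA, SLBP siRNA and non-transfected cells treated with TGFbeta at 100 ng/ml for 48 h, and the same 4 kinds of cells without TGFbeta. FLASH (gene CASP8AP2) and SLBP act in the processing of replication-dependent histone transcripts and NPAT in their transcription, and the study asked how the 3 proteins bear on the epithelial-mesenchymal transition that TGFbeta induces. No group with a non-targeting siRNA was analysed here, so the effect of a target and that of transfection cannot be told apart when siRNA cells are set against non-transfected cells. The labels call the non-transfected cells mock in their descriptions and do not say whether they received transfection reagent. Harvest is given as day 3 in the titles, but as 4 days after transfection in the series' design. Nothing in the labels says that the 2 libraries of a group came from separate cultures, so the p-values measure the spread between these libraries, which may be technical.

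Libraries held 23.8 to 30.8 M counts, of which 6.96 to 13.15% lay in mitochondrial genes. The target of each siRNA was low in its own group. CASP8AP2 had 10.3 and 13.1 CPM (counts per M, on TMM-scaled library sizes) in FLASH siRNA cells, against 52.0 and 62.4 CPM in non-transfected cells. NPAT had 5.39 and 5.51 CPM in NPAT siRNA cells, against 53.4 and 48.9 CPM in non-transfected cells. SLBP had 4.24 and 3.53 CPM in SLBP siRNA cells, against 71.7 and 63.2 CPM in non-transfected cells. With TGFbeta CASP8AP2 had 12.7 and 10.1 CPM in FLASH siRNA cells against 51.1 and 57.2 CPM in non-transfected cells, NPAT had 7.69 and 5.18 CPM in NPAT siRNA cells against 47.0 and 54.1 CPM in non-transfected cells, and SLBP had 4.31 and 4.11 CPM in SLBP siRNA cells against 64.3 and 65.3 CPM in non-transfected cells. In every case the siRNA libraries lay below the non-transfected libraries. Of 6 epithelial markers none was at 0, and their summed level ran from 726 to 1690 CPM over all libraries. Leukocyte markers summed to 25.5 to 187 CPM, of which CD68 had 24.9 to 185 CPM, while PTPRC and CD3E reached at most 0.274 CPM. Over all libraries 6 acinar markers summed to at most 0.366 CPM and 5 endothelial markers to at most 11.2 CPM. Of the fibroblast markers, COL1A1 ranged from 42.2 to 6440 CPM while DCN reached at most 0.57 CPM.

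Promoter sequences show the elements that most of these genes share. RefSeq start sites on GRCh38.p14 gave the 250 bases before the start for 30 of the 36 members. The CHR, searched as TTTGAA or its reverse complement TTCAAA or as TTCGAA, was present in that window for 19 of the 30 members (63.3%), against 2464 of 15842 protein-coding genes (15.6%). The CCAAT box, searched as CCAAT or ATTGG, was present for 25 members (83.3%), against 40.2% of protein-coding genes, and 17 members held 2 or more. Both elements were present for 18 of the 30 members, against 6.0% of protein-coding genes. These letters are short and match by chance, so a match is a description of the window and not a binding site. The windows of MKI67, KIF11 and CKS2 are given because these genes carry both elements. After FLASH siRNA MKI67 and KIF11 rose and CKS2 fell. The window of CENPF is given because it holds 3 CCAAT boxes with no match to the CHR letters. Capitals mark CHR and CCAAT letters, each line reads 5′ to 3′ along the gene's strand and ends at the base before the start site.
MKI67: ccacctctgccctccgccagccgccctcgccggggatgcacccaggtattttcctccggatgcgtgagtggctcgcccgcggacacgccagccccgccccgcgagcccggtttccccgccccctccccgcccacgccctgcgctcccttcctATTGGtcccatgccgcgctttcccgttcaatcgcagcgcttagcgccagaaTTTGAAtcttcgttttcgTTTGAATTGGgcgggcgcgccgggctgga
KIF11: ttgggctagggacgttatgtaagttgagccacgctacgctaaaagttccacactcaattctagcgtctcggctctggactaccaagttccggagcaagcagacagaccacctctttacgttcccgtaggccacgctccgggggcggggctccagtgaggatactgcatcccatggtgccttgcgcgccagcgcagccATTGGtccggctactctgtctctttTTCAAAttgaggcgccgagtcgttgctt
CKS2: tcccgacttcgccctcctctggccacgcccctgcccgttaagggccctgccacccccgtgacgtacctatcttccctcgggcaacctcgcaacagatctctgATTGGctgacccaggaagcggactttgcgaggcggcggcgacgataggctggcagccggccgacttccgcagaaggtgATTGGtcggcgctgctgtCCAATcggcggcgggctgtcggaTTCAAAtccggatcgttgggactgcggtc
CENPF: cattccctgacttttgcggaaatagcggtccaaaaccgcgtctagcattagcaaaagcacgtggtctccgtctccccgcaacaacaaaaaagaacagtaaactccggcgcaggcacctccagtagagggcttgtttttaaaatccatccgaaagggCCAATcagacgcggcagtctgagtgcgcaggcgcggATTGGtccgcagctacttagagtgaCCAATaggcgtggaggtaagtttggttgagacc

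The MKI67 window is chr10:128126424-128126673 on the minus strand, with CHR matches that begin 47 and 29 bases before the start, the second sharing 1 base with a CCAAT box that begins 24 bases before it. The KIF11 window is chr10:92592880-92593129 on the plus strand, with a CHR at 28 and a CCAAT box at 53 bases before the start. The CKS2 window is chr9:89310945-89311194 on the plus strand, with a CHR at 29 and CCAAT boxes at 52, 70 and 148 bases before the start. The CENPF window is chr1:214602945-214603194 on the plus strand, with CCAAT boxes at 33, 58 and 94 bases before the start. Of the 19 members with a CHR, 15 had one within 60 bases of a start site. In 44 genes of DNA replication and S phase, by contrast, the CHR was present for 2 of 38 genes with a window (5.3%), and E2F-like letters (TTTGGCGC or else TTTCCCGC or else TTTCGCGC or else TTTGCCGC, on both strands) for 16 of the 38 (42.1%), against 3 of the 30 G2 and mitosis genes (10.0%) and 4.6% of protein-coding genes.

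Levels between genes are compared on the deposited TPM, which are scaled for transcript length. Averaged over all 16 libraries, CKS1B, a small subunit that binds cyclin-dependent kinases, had the highest level of the 36 members with 182 TPM, followed by UBE2C, the ubiquitin-conjugating enzyme of the anaphase promoting complex, with 131 TPM, and TPX2, an activator of Aurora A at the spindle, with 128 TPM. The lowest were ASPM, a protein of the spindle poles, with 11 TPM, CDC25C, a phosphatase that activates CDK1, with 10.2 TPM, and CENPE, a kinetochore motor, with 9.01 TPM.

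Summed over the 36 members, expression was highest after FLASH siRNA and lowest after NPAT or SLBP siRNA. The members summed to 4980 and 4850 CPM in FLASH siRNA cells, to 2880 and 2240 CPM in NPAT siRNA cells, to 2700 and 2300 CPM in SLBP siRNA cells and to 3580 and 3230 CPM in non-transfected cells. With TGFbeta the sums were 3760 and 3980 CPM in FLASH siRNA cells, 2580 and 1840 CPM in NPAT siRNA cells, 2300 and 2150 CPM in SLBP siRNA cells and 2860 and 2750 CPM in non-transfected cells. Without and with TGFbeta, both FLASH siRNA libraries lay above and all NPAT and SLBP siRNA libraries below both non-transfected libraries. Of the 8 group means of each gene, the highest was that of FLASH siRNA without TGFbeta for 34 of the 36 members, and the lowest was that of SLBP siRNA with TGFbeta for 15 members and of NPAT siRNA with TGFbeta for 14. The libraries of a group also differed. In NPAT siRNA cells 35 of 36 members were lower in replicate 2 than in replicate 1, without TGFbeta (median difference -0.40 on the log2 scale) and with it (-0.54), while the median over all tested genes differed by -0.01 and -0.02. Without TGFbeta replicate 2 was also the lower for 32 members in SLBP siRNA cells (median -0.26), 31 in non-transfected cells (-0.17) and 24 in FLASH siRNA cells (-0.05). With TGFbeta it was the lower for 28 members in SLBP siRNA cells (-0.12) and 27 in non-transfected cells (-0.04), whereas 28 members were higher in replicate 2 in FLASH siRNA cells (0.08). Results that rest on one of these libraries are given with and without it. Leaving out a library leaves 1 in its group, which also changes how many of all genes pass. Without non-transfected replicate 1, fewer of all genes passed for each siRNA without TGFbeta and for TGFbeta in non-transfected cells. A lower count of members without a library is thus not by itself a trait of these genes.

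**Figure D1:**
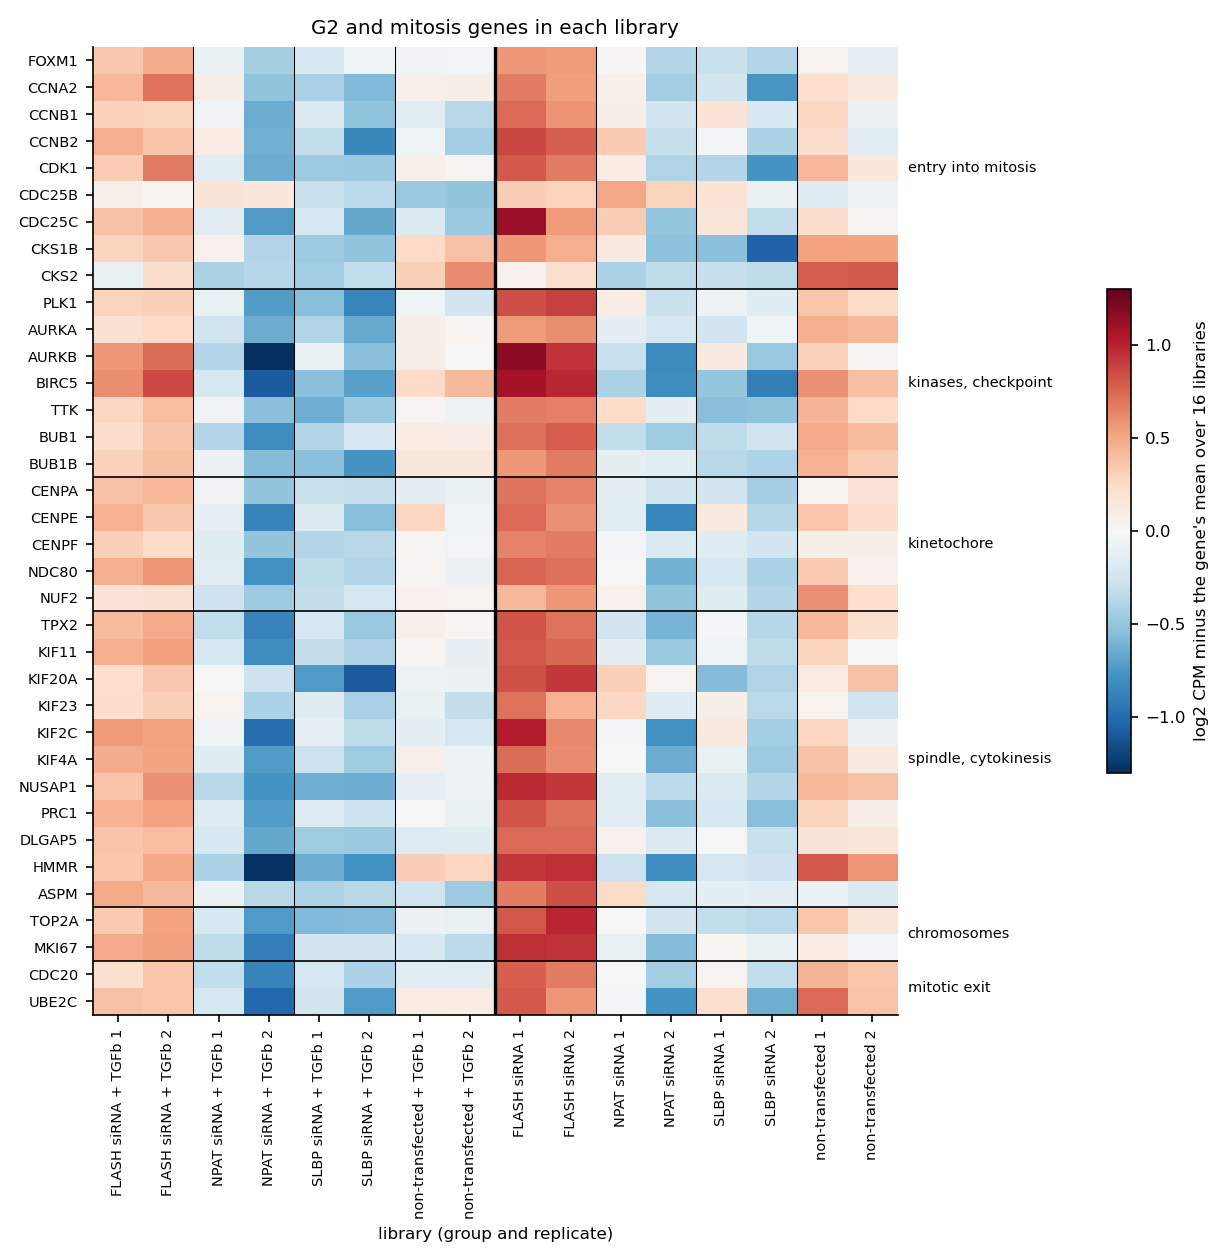
Heat map of the 36 members (rows, ordered by role) in the 16 libraries (columns, by group), with colour giving log2 CPM minus the mean of that gene over all libraries. The FLASH siRNA libraries without TGFbeta hold the highest group mean for 34 members, and replicate 2 of NPAT siRNA lies below replicate 1 for 35 members without and with TGFbeta.

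FLASH siRNA without TGFbeta raised the proliferation marker MKI67 and many genes of the spindle. MKI67, which codes for the coat protein of mitotic chromosomes, had 678 and 669 CPM in FLASH siRNA cells, against 375 and 343 CPM in non-transfected cells. ASPM had 118 and 133 CPM in FLASH siRNA cells, against 70.5 and 65.8 CPM in non-transfected cells. For both genes every FLASH siRNA library lay above every non-transfected library, and the log2 fold changes were 0.91 ± 0.17 (SE, n = 2 each; adjusted p = 0.0015, edgeR quasi-likelihood, Benjamini-Hochberg) and 0.88 ± 0.14 (adjusted p = 0.00069). Of the 36 members, 16 rose and 1 fell, together 47.2% of the members, while 33.8% of the 17743 genes tested passed in either direction, 20.8% higher and 12.9% lower. The members' median log2 fold change was 0.54. Libraries did not overlap between the groups for 33 members, 32 of them higher in FLASH siRNA cells and 1 lower, against 38.5% of all genes higher and 32.5% lower without overlap.

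By role, 7 of the 11 spindle genes rose after FLASH siRNA (ASPM, KIF23, KIF11, KIF20A, PRC1, DLGAP5 and NUSAP1), and none fell. Both chromosome genes rose. TOP2A, the topoisomerase that untangles sister chromatids, had 456 and 514 CPM in FLASH siRNA cells, against 333 and 290 CPM in non-transfected cells, a log2 fold change of 0.64 ± 0.15 (adjusted p = 0.0067). Among the 9 genes of mitotic entry, CCNB2, FOXM1 and CDC25B rose and CKS2 fell. FOXM1, the forkhead factor that drives G2 transcription, had 73.1 and 72.2 CPM in FLASH siRNA cells, against 50.9 and 45.8 CPM in non-transfected cells (0.59 ± 0.14, adjusted p = 0.0067), with no overlap. The cyclin B gene CCNB2 had 54.9 and 51.6 CPM in FLASH siRNA cells, against 35.4 and 27.3 CPM in non-transfected cells (0.76 ± 0.27, adjusted p = 0.044). Its partner in role, CCNB1, had 115 and 103 CPM in FLASH siRNA cells, against 83.1 and 65.6 CPM in non-transfected cells, and missed the threshold (0.55 ± 0.20, adjusted p = 0.054), as did CDK1, the kinase that both cyclins activate. CDK1 had 113 and 104 CPM in FLASH siRNA cells, against 88.0 and 71.6 CPM in non-transfected cells.

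Of the 7 kinase and checkpoint genes, AURKB and PLK1 rose after FLASH siRNA. AURKB, the kinase of the chromosomal passenger complex, had 70.6 and 60.7 CPM in FLASH siRNA cells, against 38.9 and 31.9 CPM in non-transfected cells (log2 fold change 0.89 ± 0.28, adjusted p = 0.027). PLK1, the Polo kinase, had 52.7 and 54.6 CPM in FLASH siRNA cells, against 38.0 and 35.1 CPM in non-transfected cells (0.55 ± 0.18, adjusted p = 0.034). Neither gene's groups overlapped. The kinetochore genes CENPA, the centromeric histone variant, and CENPF rose, and the other 3 of the 5 did not pass. CDC20, the activator of the anaphase promoting complex, had 118 and 110 CPM in FLASH siRNA cells, against 93.8 and 88.6 CPM in non-transfected cells, and neither it nor UBE2C passed. The count of 17 members was lower whichever of the 4 libraries was left out, and without non-transfected replicate 1 fewer of all genes passed as well. MKI67, ASPM and CKS2 passed whichever of the 4 libraries was left out. AURKB, CCNB2 and PLK1 missed the threshold without any of the 4, at adjusted p of 0.058 to 0.15 for AURKB, 0.07 to 0.23 for CCNB2 and 0.094 to 0.15 for PLK1. TOP2A missed it without FLASH siRNA replicate 2 (adjusted p = 0.056) or non-transfected replicate 2 (adjusted p = 0.062), and FOXM1 without non-transfected replicate 2 (adjusted p = 0.059).

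**Figure D2:**
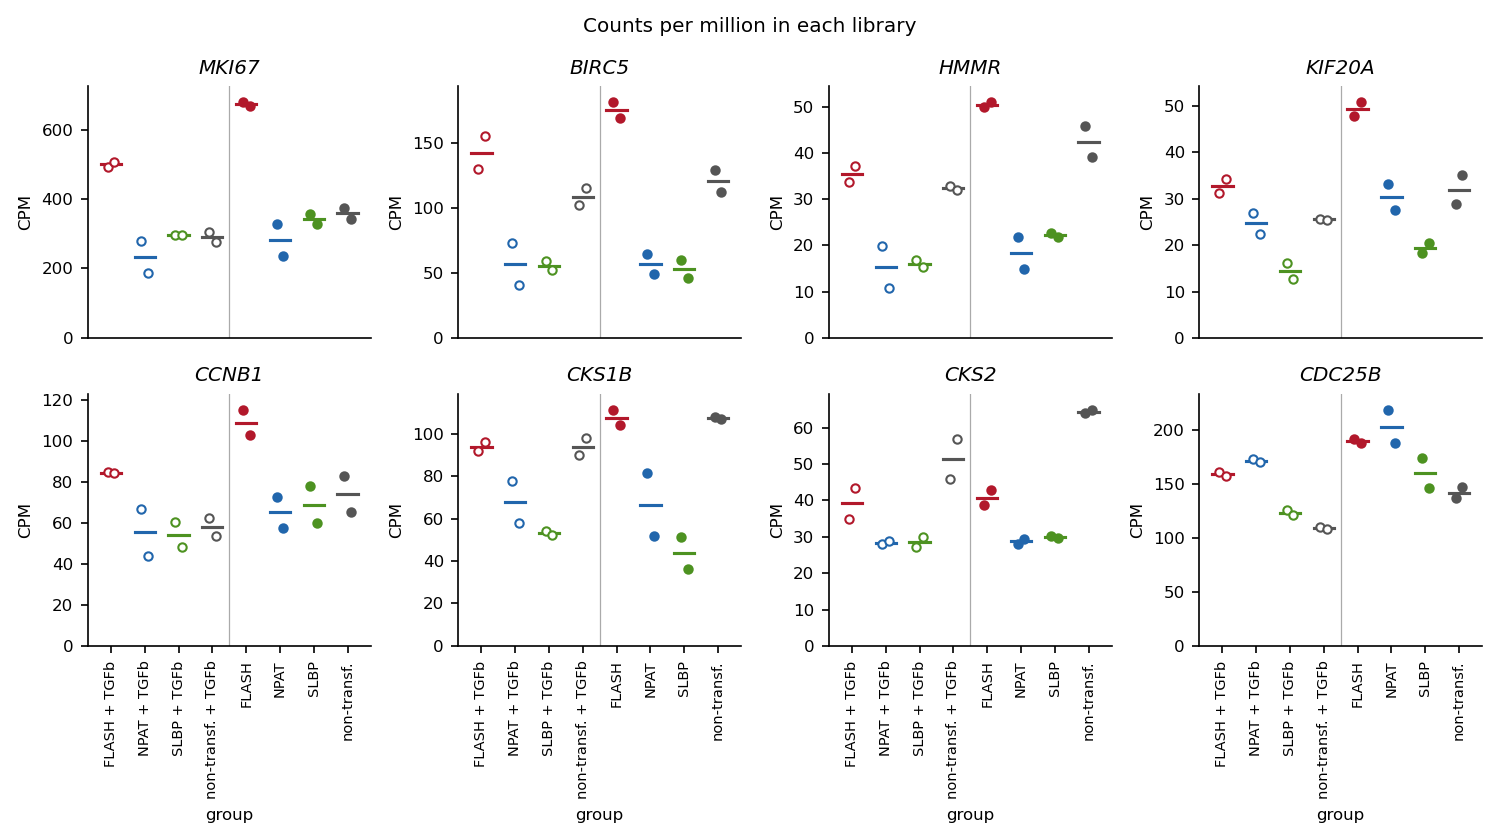
CPM in every library (points, y axis from 0) for MKI67, BIRC5, HMMR, KIF20A, CCNB1, CKS1B, CKS2 and CDC25B, by kind of cells along the x axis, with open points for libraries with TGFbeta and lines for group means. MKI67 and CKS2 show opposite changes after FLASH siRNA, with 678 and 669 CPM of MKI67 above, and 38.7 and 42.8 CPM of CKS2 below, both non-transfected libraries.

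NPAT siRNA lowered checkpoint genes, CKS genes and both genes of mitotic exit. HMMR, a microtubule-binding protein of the spindle, had 21.8 and 15 CPM in NPAT siRNA cells, against 45.8 and 39.1 CPM in non-transfected cells, a log2 fold change of -1.21 ± 0.23 (adjusted p = 0.0022). BIRC5 (survivin), the partner of AURKB in the passenger complex, had 64.5 and 48.9 CPM in NPAT siRNA cells, against 129 and 112 CPM in non-transfected cells (-1.09 ± 0.23, adjusted p = 0.0044). In both genes the NPAT siRNA libraries lay below the non-transfected libraries with no overlap. Of the 36 members 14 fell and 1 rose, together 41.7%, against 32.3% of all genes tested, 13.3% lower and 18.9% higher. The median over the members was -0.45. For 28 members the libraries did not overlap, 27 of them lower and 1 higher in NPAT siRNA cells, against 28.9% of all genes lower and 35.6% higher.

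The members that fell after NPAT siRNA were spread over the roles. They comprised 4 of the 7 kinase and checkpoint genes (BIRC5, BUB1, BUB1B and AURKA), 4 of the 11 spindle genes (HMMR, TPX2, NUSAP1 and PRC1), 2 of the 9 entry genes (CKS2 and CKS1B), 2 of the 5 kinetochore genes (CENPE and NUF2) and both exit genes. UBE2C had 57.0 and 33.7 CPM in NPAT siRNA cells, against 96.1 and 74.5 CPM in non-transfected cells (-0.91 ± 0.31, adjusted p = 0.042). CDC20 had 68.8 and 50.7 CPM in NPAT siRNA cells, against 93.8 and 88.6 CPM in non-transfected cells (-0.61 ± 0.18, adjusted p = 0.022). NPAT siRNA replicate 2 was the lower library for both. Neither chromosome gene passed, MKI67 with 327 and 237 CPM and TOP2A with 260 and 219 CPM in NPAT siRNA cells. FOXM1 had 50 and 38.0 CPM in NPAT siRNA cells, against 50.9 and 45.8 CPM in non-transfected cells, and its groups overlapped. Its log2 fold change was -0.14 ± 0.14 and 0.05 without NPAT siRNA replicate 2. The B cyclin CCNB1 and CDK1, PLK1 and AURKB did not pass either, at log2 fold changes of -0.19, -0.42, -0.39 and -0.70 in that order. Without NPAT siRNA replicate 1 the log2 fold change was -0.69 for CDK1 and -0.6 for MKI67. Fewer members passed without NPAT siRNA replicate 2, or without non-transfected replicate 1, where fewer of all genes passed as well. CDC20 and UBE2C missed the threshold without either of these and without non-transfected replicate 2, at adjusted p of 0.06 to 0.18 for CDC20 and of 0.06 to 0.27 for UBE2C, while HMMR, BIRC5 and CKS2 passed whichever of the 4 libraries was left out.

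SLBP siRNA lowered 17 members and raised none. The largest fall was that of CKS1B, with 51.5 and 36.3 CPM in SLBP siRNA cells, against 108 and 107 CPM in non-transfected cells, a log2 fold change of -1.30 ± 0.20 (adjusted p = 0.0011). BIRC5 had 60.3 and 46.2 CPM in SLBP siRNA cells, against 129 and 112 CPM in non-transfected cells (-1.18 ± 0.23, adjusted p = 0.0039). HMMR had 22.6 and 21.8 CPM in SLBP siRNA cells, against 45.8 and 39.1 CPM in non-transfected cells (-0.94 ± 0.23, adjusted p = 0.011). In all 3 genes the groups did not overlap. The 17 members are 47.2% of the 36, against 25.9% of all genes tested, 10.8% lower and 15.1% higher, and the members' median was -0.52. For 27 members the libraries did not overlap, all lower in SLBP siRNA cells, against 27.1% of all genes lower and 31.9% higher.

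Of the 7 kinase and checkpoint genes 5 fell after SLBP siRNA (BIRC5, TTK, BUB1B, BUB1 and AURKA), as did 4 of the 9 entry genes (CKS1B, CKS2, CDK1 and CCNA2), 4 of the 11 spindle genes (HMMR, KIF20A, NUSAP1 and PRC1), 2 of the 5 kinetochore genes (NUF2 and CENPA), TOP2A and CDC20. CDK1 had 50.1 and 38.3 CPM in SLBP siRNA cells, against 88.0 and 71.6 CPM in non-transfected cells (-0.85 ± 0.20, adjusted p = 0.0097). TOP2A had 208 and 203 CPM in SLBP siRNA cells, against 333 and 290 CPM in non-transfected cells (-0.60 ± 0.15, adjusted p = 0.014). Neither gene's groups overlapped, whereas those of MKI67 did. MKI67 had 356 and 327 CPM in SLBP siRNA cells, against 375 and 343 CPM in non-transfected cells (-0.07 ± 0.17, adjusted p = 0.78), and ASPM had 68.7 and 67.7 CPM in SLBP siRNA cells, against 70.5 and 65.8 CPM in non-transfected cells (0.00 ± 0.14). The log2 fold change of CCNB1 was -0.11 ± 0.20, and it was 0.07 without non-transfected replicate 1 and 0.05 without SLBP siRNA replicate 2. FOXM1, PLK1 and AURKB did not pass, at -0.30, -0.42 and -0.32 in that order. Fewer members passed without non-transfected replicate 1, where fewer of all genes passed as well, and without SLBP siRNA replicate 2. CDK1 missed the threshold without either of these 2 libraries (adjusted p = 0.088 and 0.069), as did TOP2A (0.11 and 0.055) and, together with non-transfected replicate 2, CDC20 (0.10 to 0.23). HMMR missed it without non-transfected replicate 1 (adjusted p = 0.081). CKS1B, CKS2 and BIRC5 passed whichever of the 4 libraries was left out.

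**Figure D3:**
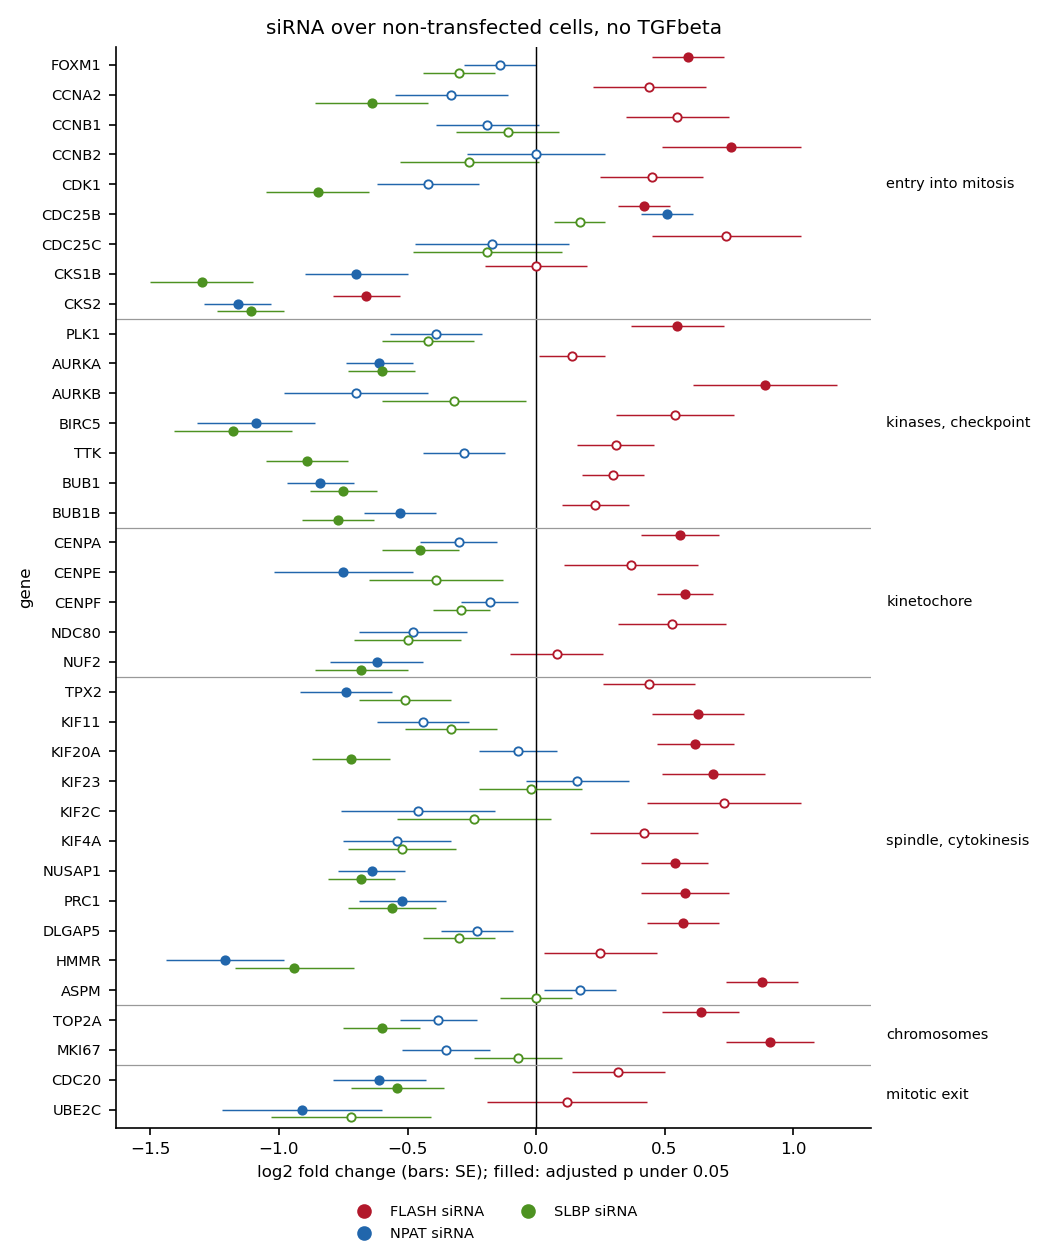
Log2 fold change of each member (rows, by role) after FLASH, NPAT or SLBP siRNA over non-transfected cells without TGFbeta, with bars for the standard error and filled points for an adjusted p under 0.05. The points for FLASH siRNA have a median of 0.54, those for NPAT siRNA of -0.45 and those for SLBP siRNA of -0.52, and CKS2 and CDC25B stand against the majority for FLASH siRNA and NPAT siRNA.

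The 3 comparisons share the non-transfected libraries, so their values are set side by side and their likeness is not itself a result. CKS2, NUSAP1 and PRC1 passed in all 3, and CKS2 was lower after each siRNA. NUSAP1 and PRC1 bind and cross-link spindle microtubules. NUSAP1 had 158 and 152 CPM in FLASH siRNA cells, 72.7 and 63.7 CPM in NPAT siRNA cells, 71.2 and 61.9 CPM in SLBP siRNA cells and 108 and 105 CPM in non-transfected cells. It was thus above the non-transfected libraries after FLASH siRNA and below them after the other siRNAs, with no overlap. KIF20A, a motor needed for cytokinesis, had 47.7 and 50.7 CPM in FLASH siRNA cells, 33.2 and 27.5 CPM in NPAT siRNA cells, 18.2 and 20.5 CPM in SLBP siRNA cells and 28.9 and 35.0 CPM in non-transfected cells, where NPAT siRNA overlapped non-transfected cells. The members CCNB1, CDC25C, KIF2C, KIF4A and NDC80 passed in none of the 6 comparisons of an siRNA with non-transfected cells.

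A few members went against the majority. CKS2, a homologue of CKS1B, had 38.7 and 42.8 CPM in FLASH siRNA cells, 27.9 and 29.5 CPM in NPAT siRNA cells, 30.2 and 29.6 CPM in SLBP siRNA cells and 63.9 and 64.7 CPM in non-transfected cells. All siRNA libraries lay below both non-transfected libraries, and its log2 fold changes were -0.66 ± 0.13 after FLASH siRNA (adjusted p = 0.0018), -1.16 ± 0.13 after NPAT siRNA (adjusted p = 0.0001) and -1.11 ± 0.13 after SLBP siRNA (adjusted p = 0.00016). CKS1B itself had 111 and 104 CPM in FLASH siRNA cells, which overlapped its 108 and 107 CPM in non-transfected cells. CDC25B, the phosphatase that starts the activation of CDK1, was the single member that rose after NPAT siRNA. It had 192 and 188 CPM in FLASH siRNA cells, 218 and 188 CPM in NPAT siRNA cells, 174 and 146 CPM in SLBP siRNA cells and 137 and 147 CPM in non-transfected cells. SLBP siRNA overlapped non-transfected cells and the other siRNAs lay above them, with log2 fold changes of 0.42 ± 0.10 after FLASH siRNA (adjusted p = 0.0068) and 0.51 ± 0.10 after NPAT siRNA (adjusted p = 0.0026). CKS1B has 6 pseudogenes named after it in GENCODE 29, and reads that map to both a gene and its copies are divided by estimation in the deposited counts. The same holds for 7 other members (UBE2C, AURKA, BUB1, CCNB2, CDC20, DLGAP5 and MKI67), and its part in their values was not tested. Exons of 14 members overlap those of another gene, and whether the counting used strand is not given in the sources used here. For BUB1B, CENPA, NUSAP1 and PRC1 an overlapping gene lies on the same strand, where strand cannot separate the reads.

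The same siRNAs were then compared within TGFbeta-treated cells. FLASH siRNA raised 10 members and lowered 1, together 30.6%, against 26.6% of all genes tested, 17.5% higher and 9.06% lower, with a median of 0.46 over the members. MKI67 had 492 and 508 CPM in FLASH siRNA cells with TGFbeta, against 305 and 277 CPM in non-transfected cells with TGFbeta (0.78 ± 0.17, adjusted p = 0.0047). ASPM had 105 and 100 CPM in FLASH siRNA cells with TGFbeta, against 62.3 and 53.6 CPM in non-transfected cells with TGFbeta (0.82 ± 0.14, adjusted p = 0.0014). The groups of both genes did not overlap, and all 10 that rose had also risen without TGFbeta. NUSAP1 (0.57 ± 0.13), CDC25B (0.55 ± 0.10), TOP2A (0.52 ± 0.15) and FOXM1 (0.46 ± 0.14) were among them, and CKS2 was again the member that fell (-0.39 ± 0.13, adjusted p = 0.036). CCNB1, CDK1, PLK1, AURKB and CDC20 did not pass. Libraries did not overlap for 35 members, 34 of them higher and 1 lower, against 36.2% of all genes higher and 32.3% lower. Fewer members passed whichever of the 4 libraries, all with TGFbeta, was left out. ASPM and CDC25B passed whichever of these was left out. MKI67 missed the threshold without non-transfected replicate 2 (adjusted p = 0.052), CKS2 without that library or FLASH siRNA replicate 1 (0.30 and 0.25), NUSAP1 without FLASH siRNA replicate 2 or non-transfected replicate 1 (0.092 and 0.054), TOP2A without any but FLASH siRNA replicate 1 (0.10 to 0.18), and FOXM1 without any of the 4 (0.053 to 0.19).

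With TGFbeta, NPAT siRNA lowered 9 members and raised CDC25B, together 27.8%, against 24.1% of all genes tested, 10.3% lower and 13.7% higher. HMMR had 19.8 and 10.8 CPM in NPAT siRNA cells with TGFbeta, against 32.9 and 32.0 CPM in non-transfected cells with TGFbeta (-1.09 ± 0.23, adjusted p = 0.0057). BIRC5 had 73.1 and 40.4 CPM in NPAT siRNA cells with TGFbeta, against 102 and 115 CPM in non-transfected cells with TGFbeta (-0.94 ± 0.23, adjusted p = 0.013). Both genes were lower in both NPAT siRNA libraries. Among members that passed, CKS2 (-0.86 ± 0.13) and the checkpoint kinase gene BUB1 (-0.68 ± 0.13) had the next largest falls, and CDC25B rose (0.65 ± 0.10, adjusted p = 0.001). The median over the members was -0.39, and libraries did not overlap for 23 lower and 1 higher member, against 31.4% of all genes lower and 34.9% higher. In this comparison FOXM1, CCNB1, CDK1, PLK1, AURKB, CDC20, TOP2A and MKI67 did not pass. Without NPAT siRNA replicate 1 with TGFbeta, log2 fold changes were -1.31 for AURKB, -0.7 for CDC20, -0.62 for TOP2A and -0.6 for MKI67. CCNB1 had a log2 fold change of 0.06 without non-transfected replicate 1 and of 0.21 without NPAT siRNA replicate 2, and PLK1 of 0.06 without NPAT siRNA replicate 2, where the full fits gave negative values. Fewer members passed without NPAT siRNA replicate 2 or either non-transfected library, and more without NPAT siRNA replicate 1, all with TGFbeta. BIRC5 missed the threshold without either replicate 2 (adjusted p = 0.11 and 0.088), while HMMR, CKS2, BUB1 and CDC25B passed whichever was left out.

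SLBP siRNA with TGFbeta lowered 12 members and raised none, 33.3%, against 19.9% of all genes tested, 7.6% lower and 12.3% higher, with a median of -0.37. HMMR had 16.8 and 15.3 CPM in SLBP siRNA cells with TGFbeta, against 32.9 and 32.0 CPM in non-transfected cells with TGFbeta (-1.01 ± 0.23, adjusted p = 0.0088). BIRC5 had 58.8 and 52.4 CPM in SLBP siRNA cells with TGFbeta, against 102 and 115 CPM in non-transfected cells with TGFbeta (-0.96 ± 0.23, adjusted p = 0.013). The libraries of these genes did not overlap. CKS2 (-0.85 ± 0.13) and KIF20A (-0.82 ± 0.15) followed, 5 of the 7 kinase and checkpoint genes fell, and of the chromosome genes TOP2A fell (-0.48 ± 0.15, adjusted p = 0.043). MKI67 had 296 and 295 CPM in SLBP siRNA cells with TGFbeta, against 305 and 277 CPM in non-transfected cells with TGFbeta. Its groups overlapped, and its log2 fold change was 0.02 ± 0.17, and -0.05 without non-transfected replicate 2. CCNB1 also changed sign, to 0.03 without non-transfected replicate 1 and 0.06 without SLBP siRNA replicate 2. Libraries did not overlap for 28 lower and 1 higher member, against 30.1% of all genes lower and 33.2% higher. Fewer members passed whichever of the 4 libraries, all with TGFbeta, was left out. BIRC5 missed the threshold without either replicate 2 (adjusted p = 0.10 and 0.088), HMMR without SLBP siRNA replicate 2 (0.081) and TOP2A without any of the 4 (0.13 to 0.17), while CKS2 and KIF20A passed whichever was left out.

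Comparing the siRNAs with each other avoids the contrast of transfected with non-transfected cells. FLASH siRNA cells were higher than NPAT siRNA cells for 33 members and lower for none, 91.7%, against 22.3% of all genes tested, 12.4% higher and 9.91% lower. They were higher than SLBP siRNA cells for 34 members and lower for none, 94.4%, against 26.2% of all genes tested, 15.3% higher and 10.8% lower. The medians were 0.89 over NPAT siRNA and 0.97 over SLBP siRNA. The libraries did not overlap for 35 members between FLASH and NPAT siRNA and for all 36 between FLASH and SLBP siRNA, in each case higher after FLASH siRNA, against 32.8% and 33.2% of all genes. All 7 kinase and checkpoint genes and all 5 kinetochore genes passed in both comparisons. Both use the same FLASH siRNA libraries, so passing in both is not independent agreement. BIRC5 was the member with the largest difference, with 181 and 169 CPM in FLASH siRNA cells, 64.5 and 48.9 CPM in NPAT siRNA cells and 60.3 and 46.2 CPM in SLBP siRNA cells. The log2 fold changes were 1.63 ± 0.24 over NPAT siRNA (adjusted p = 0.00087) and 1.72 ± 0.24 over SLBP siRNA (adjusted p = 0.00049). AURKB followed over NPAT siRNA (1.59 ± 0.29), then HMMR (1.45 ± 0.23) and MKI67 (1.26 ± 0.17), and over SLBP siRNA KIF20A (1.35 ± 0.15), CDK1 (1.30 ± 0.20) and CKS1B (1.29 ± 0.20). CCNB1 passed in both, at 0.74 ± 0.20 over NPAT siRNA (adjusted p = 0.023) and 0.66 ± 0.20 over SLBP siRNA (adjusted p = 0.032). The members that did not pass were CDC25B, CCNB2 and KIF23 over NPAT siRNA and CDC25B and UBE2C over SLBP siRNA. Over NPAT siRNA fewer members passed without NPAT siRNA replicate 2 or without FLASH siRNA replicate 1. Over SLBP siRNA most members still passed whichever library was left out.

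With TGFbeta, FLASH siRNA cells were higher than NPAT siRNA cells for 25 of the 36 members and lower for none. Of all genes tested 13.6% passed there, 9.09% higher and 4.5% lower. FLASH siRNA cells were higher than SLBP siRNA cells for 29 of the 36 members and lower for none. Of all genes tested 13.0% passed there, 8.3% higher and 4.73% lower. The medians were 0.82 and 0.84. Libraries did not overlap for any member, with 35 higher and 1 lower than in NPAT siRNA cells, against 33.8% and 27.1% of all genes, and 36 higher than in SLBP siRNA cells, against 33.1% of all genes. BIRC5 had 130 and 155 CPM in FLASH siRNA cells with TGFbeta, 73.1 and 40.4 CPM in NPAT siRNA cells with TGFbeta and 58.8 and 52.4 CPM in SLBP siRNA cells with TGFbeta, with log2 fold changes of 1.33 ± 0.23 (adjusted p = 0.0041) and 1.35 ± 0.23 (adjusted p = 0.0042). Its FLASH siRNA libraries lay above all NPAT and SLBP siRNA libraries. With all libraries in the fit, DESeq2 called 31 members higher over NPAT siRNA and 33 over SLBP siRNA. The DESeq2 shares of all genes are not given here, so these counts are not to be set against the edgeR shares. Over NPAT siRNA the edgeR count was lower without FLASH siRNA replicate 2 or NPAT siRNA replicate 2, both with TGFbeta. Over SLBP siRNA the edgeR count was lower whichever library was left out. BIRC5 missed the threshold without FLASH siRNA replicate 2 (adjusted p = 0.058 over NPAT siRNA and 0.054 over SLBP siRNA) and, over SLBP siRNA, without SLBP siRNA replicate 2 (0.051).

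NPAT and SLBP siRNA cells differed in 3 members, 8.3%, against 16% of all genes tested. KIF20A (0.65 ± 0.15, adjusted p = 0.013), the checkpoint kinase gene TTK (0.60 ± 0.16, adjusted p = 0.021) and CDC25B (0.34 ± 0.10, adjusted p = 0.037) were higher in NPAT siRNA cells. TTK had 43.5 and 34.1 CPM in NPAT siRNA cells, against 25.4 and 25.7 CPM in SLBP siRNA cells, with no overlap. The median over the members was 0.04, and -0.11 without NPAT siRNA replicate 1 and -0.07 without SLBP siRNA replicate 2. None of the 3 genes passed without NPAT siRNA replicate 1, at log2 fold changes of 0.51 for KIF20A, 0.42 for TTK and 0.23 for CDC25B. Fewer members also passed without either SLBP siRNA library. With TGFbeta, KIF20A (0.77 ± 0.15, adjusted p = 0.0075) and CDC25B (0.47 ± 0.10, adjusted p = 0.0093) were higher in NPAT siRNA cells, 5.6% of the members, against 12.4% of all genes tested, and neither passed without SLBP siRNA replicate 2 with TGFbeta (adjusted p = 0.094 and 0.091).

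Few members passed for TGFbeta within one kind of cells. In non-transfected cells CDC25B had 110 and 108 CPM with TGFbeta, against 137 and 147 CPM without (-0.38 ± 0.10, adjusted p = 0.042), and NUSAP1 had 75.0 and 77.1 CPM with TGFbeta, against 108 and 105 CPM without (-0.49 ± 0.13, adjusted p = 0.049). These 2 genes fell with no overlap, 5.6% of the members, against 6.18% of all genes tested, 1.64% lower and 4.54% higher. In FLASH siRNA cells KIF20A fell, with 31.2 and 34.2 CPM with TGFbeta, against 47.7 and 50.7 CPM without (-0.59 ± 0.15, adjusted p = 0.047), 2.8% of the members, against 4.11% of all genes tested, 0.755% lower and 3.35% higher. In SLBP siRNA cells CDC25B fell, with 126 and 121 CPM with TGFbeta, against 174 and 146 CPM without (-0.38 ± 0.10, adjusted p = 0.026), 2.8%, against 12.6% of all genes tested, 4.51% lower and 8.07% higher. Each of these 4 calls was lost when 1 library was left out. NUSAP1 and CDC25B in non-transfected cells, and KIF20A in FLASH siRNA cells, missed the threshold whichever library was left out (adjusted p of 0.17 to 0.21, 0.11 to 0.26 and 0.14 to 0.30 in that order), and CDC25B in SLBP siRNA cells without SLBP siRNA replicate 1, or without either SLBP siRNA library with TGFbeta (0.086 to 0.16). In NPAT siRNA cells no member passed by edgeR or by DESeq2, and 5.33% of all genes tested passed by edgeR, 1.92% lower and 3.42% higher. At an unadjusted p under 0.05 by edgeR 4 members were lower. The share of all genes at that looser threshold is not given here, so this count cannot be set against the shares above.

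The direction of the TGFbeta effect was more even than its calls. The medians over the members were -0.32 in FLASH siRNA cells, -0.23 in NPAT siRNA cells, -0.17 in SLBP siRNA cells and -0.28 in non-transfected cells, and the log2 fold change was negative for 36, 33, 30 and 36 members in that order. The median in NPAT siRNA cells was 0.00 without NPAT siRNA replicate 1 and 0.03 without NPAT siRNA replicate 2 with TGFbeta. Libraries did not overlap and were lower with TGFbeta for 33 members in FLASH siRNA cells, 5 in NPAT siRNA cells, 12 in SLBP siRNA cells and 29 in non-transfected cells, against 26.6%, 22.9%, 23.8% and 22.9% of all genes. They were higher without overlap for 2 members in SLBP siRNA cells and for none in the other cells, against 26.7% of all genes in FLASH siRNA, 21.0% in NPAT siRNA, 24.0% in SLBP siRNA and 24.3% in non-transfected cells. The effect was therefore also averaged over the 4 kinds of cells, a comparison chosen after the values had been seen. Averaged in this way 16 members fell and none rose, 44.4%, against 29.1% of all genes tested, 13.6% lower and 15.5% higher, and all 36 log2 fold changes were negative with a median of -0.24. PLK1 (-0.47 ± 0.09, adjusted p = 0.0021), HMMR (-0.41 ± 0.11, adjusted p = 0.016), KIF20A (-0.41 ± 0.08, adjusted p = 0.0014) and NUSAP1 (-0.41 ± 0.07, adjusted p = 0.00057) had the largest falls. Of the kinase and checkpoint genes 5 of 7 fell, and both chromosome genes fell, MKI67 by 0.30 and TOP2A by 0.35 on the log2 scale. The 4 genes with the largest falls passed whichever of the 16 libraries was left out, while the count of members moved up or down.

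**Figure D4:**
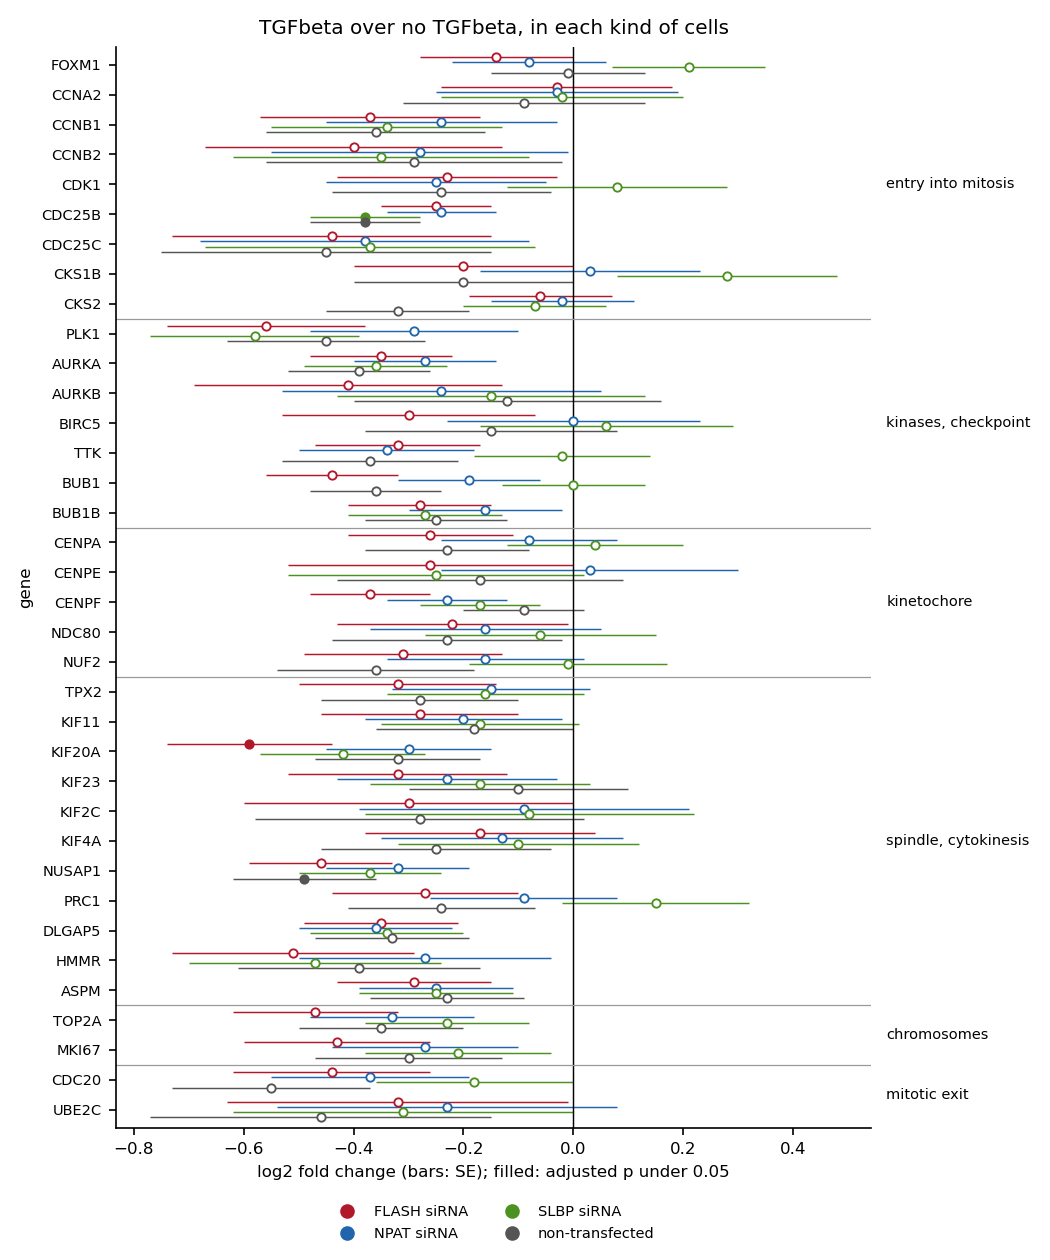
Log2 fold change of each member (rows, by role) with TGFbeta over without TGFbeta in FLASH siRNA, NPAT siRNA, SLBP siRNA and non-transfected cells, with bars for the standard error and filled points for an adjusted p under 0.05. Most points lie below 0, with medians of -0.32, -0.23, -0.17 and -0.28 in that order, and 4 points are filled.

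Whether TGFbeta altered the effect of an siRNA was tested as an interaction. No member passed for FLASH, NPAT or SLBP siRNA by edgeR or by DESeq2, none had an unadjusted p under 0.05 by edgeR, and 0.0845%, 0.0451% and 0.0225% of all genes tested passed. The smallest unadjusted p over the members was 0.086, 0.11 and 0.067 in that order. With 2 libraries a group this does not show that the effects were equal.

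The siRNA effects averaged without and with TGFbeta, also chosen after the values had been seen, used 4 libraries on each side. FLASH siRNA raised 28 members and lowered CKS2, 80.6%, against 46.7% of all genes tested, NPAT siRNA lowered 22 and raised CDC25B, 63.9%, against 47.2%, and SLBP siRNA lowered 24 and raised none, 66.7%, against 41.0%. Among members that had not passed in either single comparison, CCNB1 rose after FLASH siRNA (0.55 ± 0.14, adjusted p = 0.0078), and its averages after NPAT and SLBP siRNA did not pass (-0.13 ± 0.14 and -0.10 ± 0.14). MKI67 rose after FLASH siRNA (0.84 ± 0.12, adjusted p = 0.00011), fell after NPAT siRNA (-0.34 ± 0.12, adjusted p = 0.034) and did not pass after SLBP siRNA (-0.03 ± 0.12). CKS1B had an average of 0.00 ± 0.14 after FLASH siRNA and fell after NPAT siRNA (-0.58 ± 0.14, adjusted p = 0.0053) and SLBP siRNA (-1.06 ± 0.14, adjusted p = 0.00015). The count for FLASH siRNA was lower without its replicate 1 without TGFbeta. For SLBP siRNA it was lower without SLBP siRNA replicate 2 with TGFbeta, and without non-transfected replicate 1 without TGFbeta.

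Regulators that act on these promoters moved in both directions after FLASH and SLBP siRNA. Of 15 genes of the DREAM, MuvB, NF-Y and E2F machinery, 2 rose and 3 fell after FLASH siRNA, 5 fell after NPAT siRNA, and 1 rose and 6 fell after SLBP siRNA, all without TGFbeta. These are 33.3%, 33.3% and 46.7% of the list, against 33.8%, 32.3% and 25.9% of all genes tested, so the first 2 shares lie near that of all genes. MYBL2, the Myb protein that joins MuvB in late S phase, had 212 and 171 CPM in FLASH siRNA cells, 88.4 and 70.8 CPM in NPAT siRNA cells, 92.1 and 87.3 CPM in SLBP siRNA cells and 60.5 and 56.9 CPM in non-transfected cells. It rose after FLASH siRNA (1.71), and averaged without and with TGFbeta it rose after FLASH siRNA (1.47 ± 0.13, adjusted p = 2.3e-06) and SLBP siRNA (0.72 ± 0.12, adjusted p = 0.00074). NFYA, a subunit of the CCAAT-binding factor NF-Y, had 51.1 and 51.5 CPM in FLASH siRNA cells, 61.1 and 61.8 CPM in NPAT siRNA cells, 54.6 and 49.1 CPM in SLBP siRNA cells and 120 and 103 CPM in non-transfected cells. All siRNA libraries of NFYA lay below the non-transfected libraries, with log2 fold changes of -1.12, -0.86 and -1.10. After NPAT siRNA the MuvB genes LIN52 (-1.36) and LIN9 (-1.15) fell furthest, and after SLBP siRNA E2F5, a DREAM subunit (-1.32), followed by NFYA and LIN9 (-0.75). With TGFbeta against without it, TFDP1, a partner of the E2F factors, rose in SLBP siRNA cells (0.31 ± 0.08, adjusted p = 0.026).

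Among 50 other G2 and mitosis genes, 22 rose and none fell after FLASH siRNA, 1 rose and 16 fell after NPAT siRNA, and none rose and 24 fell after SLBP siRNA, with medians of 0.47, -0.41 and -0.53. Those that passed were 44.0%, 34.0% and 48.0% of the list, against 33.8%, 32.3% and 25.9% of all genes tested. The 44 genes of DNA replication and S phase, in which SLBP itself is listed, had 29 genes that rose and none that fell after FLASH siRNA, none and 25 after NPAT siRNA and 1 and 15 after SLBP siRNA, which is 65.9%, 56.8% and 36.4% of the list. RRM2, a subunit of ribonucleotide reductase, had 325 and 273 CPM in FLASH siRNA cells, 79.5 and 68.9 CPM in NPAT siRNA cells, 122 and 113 CPM in SLBP siRNA cells and 105 and 89.4 CPM in non-transfected cells. With TGFbeta 18 S phase genes rose after FLASH siRNA, with a median of 0.46 beside 0.46 for the G2 and mitosis genes, and 28 fell after NPAT siRNA, with a median of -0.55 beside -0.39. After SLBP siRNA with TGFbeta 2 S phase genes rose and 4 fell, with a median of 0.02, beside 12 of 36 G2 and mitosis genes that fell with a median of -0.37. Of all genes tested with TGFbeta, 17.5% rose after FLASH siRNA and 10.3% fell after NPAT siRNA. After SLBP siRNA 12.3% rose and 7.6% fell. Between NPAT and SLBP siRNA cells with TGFbeta, 1 S phase gene was higher and 24 were lower in NPAT siRNA cells, with a median of -0.56, beside 2 higher G2 and mitosis genes and a median of 0.03. Of all genes tested there 5.77% were higher and 6.61% lower. PCNA, the clamp of the replication fork, had 46.9 and 32.7 CPM in NPAT siRNA cells with TGFbeta, against 98.3 and 143 CPM in SLBP siRNA cells with TGFbeta (-1.60 ± 0.20, adjusted p = 0.00053). The TGFbeta effect averaged over the 4 kinds of cells lowered 19 of the 50 other G2 and mitosis genes and raised none, with a median of -0.21, and among the S phase genes it raised 5 and lowered none, with a median of 0.01. Of all genes tested it lowered 13.6% and raised 15.5%, the latter a larger share than 5 of the 44 S phase genes. The difference between the lists was not tested.

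**Figure D5:**
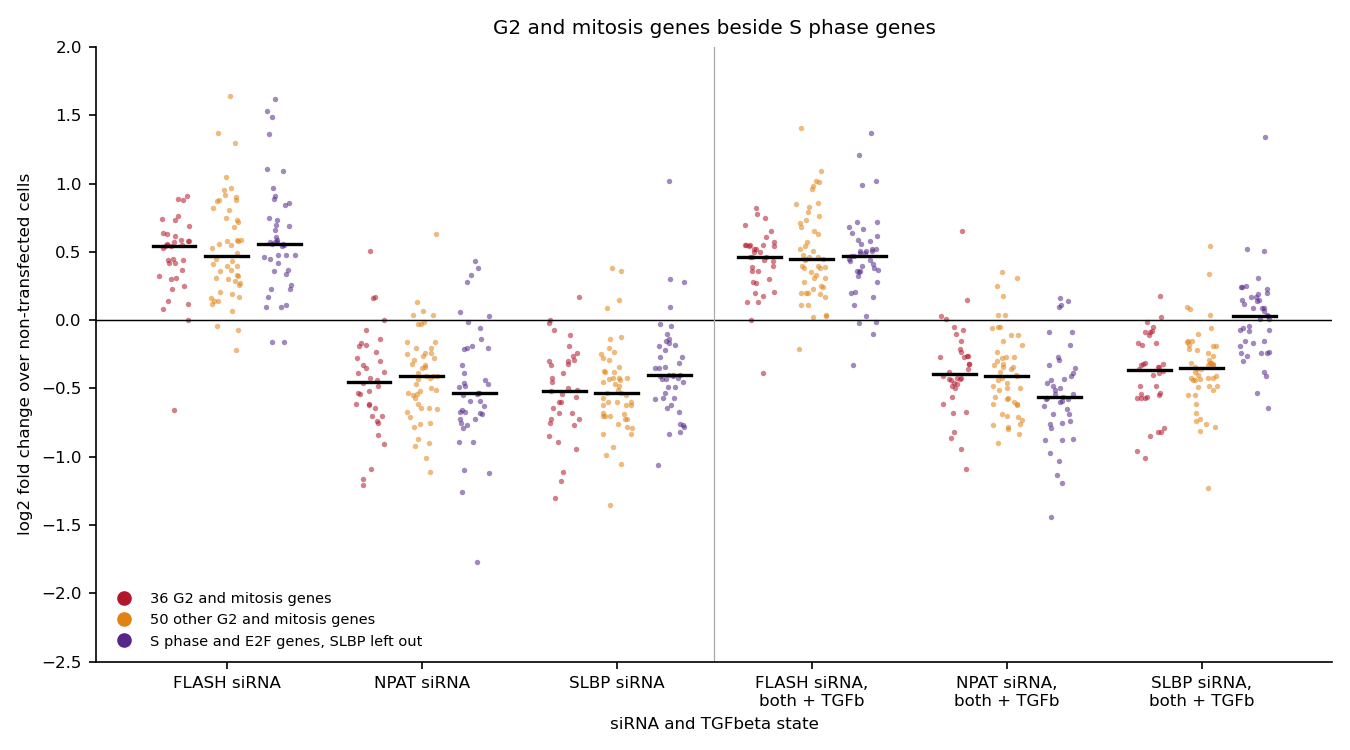
Log2 fold changes (y axis, one point per gene) of the 36 members, 50 other G2 and mitosis genes and S phase genes without SLBP in the 6 comparisons of an siRNA with non-transfected cells, with black bars for medians. Medians of the members run from 0.54 after FLASH siRNA to -0.52 after SLBP siRNA, and after SLBP siRNA with TGFbeta the members' median is -0.37.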

How the data were processed

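Poly(A) RNA of PANC-1 cells was sequenced from a stranded mRNA kit, per the labels' protocols. STAR 2.4.2a, RSEM 1.2.31 and GRCh38.p10 are named in the submitters' processing notes. The authors deposited expected counts, which are RSEM estimates per gene and need not be whole, and TPM, which are scaled for transcript length and depth. 48 columns that match no sample's labels were not used.

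Expected counts were rounded to whole numbers. edgeR 4.0.16 in R 4.3.3 kept 17743 genes with filterByExpr and scaled libraries by TMM, and a quasi-likelihood F test was run with 1 mean per group over 16 libraries and 8 residual degrees of freedom. Benjamini-Hochberg adjusted p under 0.05 was called, over all genes tested. CPM are TMM-scaled, and TPM were used for levels between genes only. Depth was 23.8 to 30.8 M counts per library. DESeq2 1.42.0, other scalings, filters, group sets, a replicate block and leaving out each library were the alternatives. The edgeR steps were tested on simulated data.

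The members and lists were chosen with earlier results of these data known. Named genes were 8 set members (FOXM1, CCNB1, CDK1, PLK1, AURKB, CDC20, TOP2A and MKI67), up to 4 members with the largest change per direction in each comparison, those against the majority, the siRNA targets, up to 3 genes per other list, and the 3 highest and 3 lowest members in TPM. Other names, such as PCNA and RRM2 beside their lists, were added after their values were seen.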

Additional observations from a re-analysis of the deposited data

How the results depend on the processing

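The medians over the 36 members kept their sign under every alternative run in the comparisons of siRNA with non-transfected cells, of FLASH siRNA with the other siRNAs and of TGFbeta in cells other than NPAT siRNA cells, and in the averages. Leaving out 1 library turned or zeroed the median for TGFbeta in NPAT siRNA cells (up to 0.03), for NPAT over SLBP siRNA without (down to -0.11) and with TGFbeta (down to -0.19), and for the interactions (between -0.17 and 0.05 where turned). Counts of members past the threshold moved more. With only the compared groups in the fit, 30 members passed for FLASH siRNA over non-transfected cells, 7 for SLBP siRNA, 28 for FLASH siRNA with TGFbeta, 14 for TGFbeta in FLASH siRNA cells, and 0 for TGFbeta in SLBP siRNA cells and for NPAT over SLBP siRNA. Of all genes in these fits, 6521 of 16478, 584 of 16006 and 5293 of 16449 passed for the siRNAs in that order. For TGFbeta 1761 of 16782 and 651 of 16373 passed, and for NPAT over SLBP siRNA 31 of 16245. With no filter on low counts 24 passed for NPAT siRNA, 23 for FLASH siRNA with TGFbeta, 21 for NPAT siRNA with TGFbeta, 7 for TGFbeta in FLASH siRNA cells and 4 for NPAT over SLBP siRNA with TGFbeta. Of all 32163 genes in that fit 6223, 5552, 5088, 1490 and 2892 passed in that order. DESeq2 called 4 for TGFbeta in FLASH siRNA cells and 2 in SLBP siRNA cells, and its shares of all genes are not given here. With the replicate number as a block 26 passed for FLASH siRNA, 24 for NPAT siRNA, 25 for FLASH siRNA with TGFbeta, 19 for NPAT siRNA with TGFbeta, and for TGFbeta 6 in FLASH siRNA, 5 in SLBP siRNA and 6 in non-transfected cells. Of all 17743 genes in the block fit 8083, 7925, 6830 and 6712 passed for the siRNAs in that order. For TGFbeta 1785, 3915 and 2119 passed. The labels state no pairing, and the deviations of same-numbered libraries correlated at 0.05 to 0.528 over 28 pairs of groups, 25 of them over 0.1 and none negative. This is a hint from the data of a shared replicate effect, not from the design, and it does not hold for all pairs, so the fits without the block are the ones reported and members that missed the threshold there may pass with it. The causes of these shifts were not tested.

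Leaving out 1 library gave 8 to 10 members for FLASH siRNA, 7 to 20 for NPAT siRNA, 9 to 19 for SLBP siRNA, and with TGFbeta 3 to 6, 4 to 19 and 3 to 7. It gave 0 for TGFbeta in FLASH siRNA and in non-transfected cells and 0 to 1 in SLBP siRNA cells. It gave 19 to 34 for FLASH over NPAT siRNA and 0 to 4 for NPAT over SLBP siRNA, and with TGFbeta 4 to 28 for FLASH over NPAT siRNA, 7 to 20 for FLASH over SLBP siRNA and 0 to 3 for NPAT over SLBP siRNA, where the 3 without NPAT siRNA replicate 1 were 1 higher and 2 lower. The averages gave 19 to 28 for FLASH siRNA and 15 to 26 for SLBP siRNA. Signs turned for FOXM1 after NPAT siRNA (-0.35 to 0.05) and CCNB1 after SLBP siRNA (-0.31 to 0.07). With TGFbeta they turned for CCNB1 (-0.37 to 0.21) and PLK1 (-0.55 to 0.06) after NPAT siRNA and for CCNB1 (-0.26 to 0.06) and MKI67 (-0.05 to 0.10) after SLBP siRNA. With 2 libraries a group, a difference that missed the threshold was not detectable here, not absent. Without non-transfected replicate 1 fewer of all genes passed as well, so the lower counts there are not particular to the members.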

Other observations

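The anaphase promoting complex marks mitotic proteins for destruction. Of 17 genes of the complex and its regulators, 3 rose and 4 fell after FLASH siRNA, 3 fell after NPAT siRNA and 6 fell after SLBP siRNA, all over non-transfected cells without TGFbeta. These are 41.2%, 17.6% and 35.3% of the list, against 33.8%, 32.3% and 25.9% of all genes tested. Averaged without and with TGFbeta, CDC26, a small subunit of the complex, had log2 fold changes of -0.85 after FLASH siRNA, -0.81 after NPAT siRNA and -0.74 after SLBP siRNA, and passed in each.

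Of 15 genes of mitotic entry brakes and phosphatases, 5 rose and none fell after FLASH siRNA, 4 rose and 2 fell after NPAT siRNA, and 2 rose and 4 fell after SLBP siRNA. These are 33.3%, 40.0% and 40.0% of the list, against 33.8%, 32.3% and 25.9% of all genes tested. CDKN1A, which codes for the cyclin-dependent kinase inhibitor p21, had 162 and 138 CPM in FLASH siRNA cells, 89.6 and 49.0 CPM in NPAT siRNA cells, 111 and 60.3 CPM in SLBP siRNA cells and 40.3 and 28.6 CPM in non-transfected cells. Its log2 fold changes were 2.12, 1.01 and 1.31 in that order, each past the threshold, and all siRNA libraries lay above both non-transfected libraries. With TGFbeta against without it in non-transfected cells, CDKN1A (1.70) and WEE1, the kinase that inhibits CDK1 (0.69), rose.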
